A study of Mus musculus with 2 samples.

Results

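The 8 genes described here encode enzymes of heme synthesis: Alas1, Alas2, Alad, Uros, Urod, Cpox, Ppox and Fech. They were taken by gene symbol from the feature lists of both single-cell libraries of mouse bone marrow, and each symbol matched 1 of the 31053 genes. The libraries hold cells sorted as E-cadherin+cKIT+ and E-cadherin+cKIT-, with 1 library per sort, and the labels give FVB as the strain of both. The study calls the donors wild-type in its text and Vav-iCre;mTmG in a figure legend, and neither the study nor the labels tie cells to a mouse, so that each library counts as 1 sample. Vav-iCre acts in blood-forming cells and mTmG is a fluorescent reporter. No age and no treatment is given for either sort. Every value below is a level in these libraries, without a test between sorts or gates, because cells of 1 library are not replicates.

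Heme is made from glycine and succinyl-CoA in a chain of enzyme reactions that begins and ends in the mitochondrion. 5-aminolevulinate synthase starts the chain and sets its rate in most cells. It exists as the housekeeping enzyme ALAS1, which heme represses, and as the erythroid enzyme ALAS2, whose gene is X-linked and whose mRNA is under translational control by iron. The later enzymes have no such erythroid gene copy and serve all cells. In bone marrow the largest demand comes from hemoglobin in erythroblasts, while granulocytes need heme for peroxidases and for the oxidase of the respiratory burst.

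Upstream sequences are shown for Alas2, for Cpox and for Urod, since these genes were high together in the alpha globin cells described below and their sequences differ in motifs read by erythroid factors. The bases come from RefSeq promoter windows on GRCm38.p6. The table held 10 windows for 7 of the 8 genes, all but Fech. Printed are bases before the RefSeq start that lie in no GENCODE exon. Capitals mark GATAA, a core of GATA factor sites, and CACCC, a core of KLF-type sites, each also as its reverse complement TTATC or GGGTG, and no capitals overlap between the motifs. The Alas2 window is chrX:150547167-150547374 on the plus strand, the Cpox window is chr16:58669958-58670207 on the plus strand, and the Urod window is chr4:116994414-116994663 on the minus strand.
Alas2: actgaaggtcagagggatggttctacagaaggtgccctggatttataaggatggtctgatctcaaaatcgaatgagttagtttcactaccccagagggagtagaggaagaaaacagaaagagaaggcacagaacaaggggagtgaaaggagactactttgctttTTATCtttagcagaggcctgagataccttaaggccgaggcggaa
Cpox: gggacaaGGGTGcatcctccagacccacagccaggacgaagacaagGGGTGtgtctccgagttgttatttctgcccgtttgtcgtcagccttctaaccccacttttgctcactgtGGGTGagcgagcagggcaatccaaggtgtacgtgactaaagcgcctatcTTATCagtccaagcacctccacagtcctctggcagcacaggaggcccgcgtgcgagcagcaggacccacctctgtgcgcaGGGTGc
Urod: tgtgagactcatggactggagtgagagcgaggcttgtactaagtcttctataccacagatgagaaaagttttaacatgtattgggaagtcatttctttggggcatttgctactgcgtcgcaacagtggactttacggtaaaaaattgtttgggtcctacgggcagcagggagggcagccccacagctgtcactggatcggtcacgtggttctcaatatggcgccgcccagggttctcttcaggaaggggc
The Alas2 run holds 1 GATAA match and the Cpox run holds 1 GATAA match and 4 CACCC matches, while neither motif was found in the Urod run. Over the 250 bases before each RefSeq start, GATAA was found in 3 of the 10 windows (Alas2, Cpox and 1 of the windows of Uros) and CACCC in 5 (windows of Alas1, Alas2, Alad and Cpox). Of all 32851 windows in the table, 22.6% held GATAA and 52% held CACCC. A match is a description of these letters and not a binding site.

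Raw UMI counts were deposited for both libraries, a UMI being the tag of 1 captured RNA molecule. The study's cell filter kept 6479 of 6632 cKIT+ cells and 3662 of 3745 cKIT- cells. The kept cKIT+ cells held 91108781 UMIs with a median of 13039 per cell, and the kept cKIT- cells 22869169 UMIs with a median of 4416.5, so that the cKIT- library was the shallower. The libraries shared 10 cell barcodes. Levels are given as CPM, the UMIs of a gene summed over the cells of a group and scaled to a total of 1000000 UMIs. Since gene length and 3′ capture differ, a CPM is compared between groups of cells and not between genes. Intervals are 95% intervals, exact Poisson for levels, from the exact binomial for ratios and exact binomial for shares, and cover counting error only.

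Cells were placed in lineage-marker gates by 1 gene each: Elane (neutrophil elastase), Prg2 (eosinophil major basic protein), Mcpt8 (a basophil protease), Hba-a1 (alpha globin) and, for comparison, C1qa (a macrophage complement gene). A cell passed a gate with at least 3 UMIs of the gene that made up at least 0.1% of its UMIs, or at least 0.5% for Mcpt8. In the cKIT+ library the Elane gate held 647 cells with a median of 23985 UMIs, the Prg2 gate 257 cells (4172), the Mcpt8 gate 3074 cells (14103), the Hba-a1 gate 57 cells (4481) and the C1qa gate 79 cells (4372). A further 100 cells passed several gates and 2265 passed none. In the cKIT- library the Mcpt8 gate held 2205 cells with a median of 7722 UMIs, the Hba-a1 gate 5 cells, the Elane gate 3, the C1qa gate 5 and the Prg2 gate 0. The other 1444 cKIT- cells, 39.4% of the library, passed no gate.

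The gates carried the markers of their lineages. All 10 erythroid markers reached 20 CPM in the cKIT+ Hba-a1 gate. Their summed level there was 314388 CPM, of which the globin gene Hbb-bs gave 276444 CPM. The sum was 19.6 CPM in the Elane gate, 47.1 CPM in the Prg2 gate and 39.4 CPM in the Mcpt8 gate. It was 132 CPM in the C1qa gate and 113 CPM in cKIT+ cells without a gate. All 6 macrophage markers reached 20 CPM in the cKIT+ C1qa gate, where they summed to 10305 CPM. Of 8 eosinophil markers 7 reached 20 CPM in the Prg2 gate, where they summed to 4981 CPM. However, 7 of 10 basophil markers also did so there and summed to 4387 CPM, of which Cd63 gave 2327 CPM. All 5 measured markers of granulocyte-monocyte progenitors did so in the Elane gate, but also in the Prg2 and Mcpt8 gates. The basophil markers summed to 1750 CPM in the Elane gate, of which Cd63 gave 1302 CPM, and the progenitor markers to 8940 CPM in the cKIT+ Mcpt8 gate. Of 10 basophil markers 9 did so in the cKIT+ Mcpt8 gate and all 10 in the cKIT- Mcpt8 gate. In cells without a gate 8 did so in the cKIT+ library and all 10 in the cKIT- library, where they summed to 7597 CPM. The Mcpt8 gate thus does not hold all cells with basophil RNA. In the Hba-a1 gate the basophil markers summed to 1001 CPM, the progenitor markers to 917 CPM and the macrophage markers to 55.3 CPM. The part of these other-lineage markers in the results was not tested. The sorting genes were nearly absent there, with 1 UMI of Kit (2.91 CPM) and 3 UMIs of Cdh1 (8.73 CPM), the gene of E-cadherin, in the 57 cells. Low Cdh1 was not particular to this gate. It stood at 2.69 CPM in the Elane gate, 22.5 CPM in the Prg2 gate and 104 CPM in the Mcpt8 gate, with 0 UMIs in the C1qa gate.

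The enzymes divided the cKIT+ library in 2 ways. Alas1 was highest in the Elane gate, and the other 7 enzymes were highest in the Hba-a1 gate. The 8 enzymes together stood at 5534 CPM in the Hba-a1 gate, at 832 CPM in the Elane gate, at 386 CPM in the Prg2 gate, at 226 CPM in the Mcpt8 gate and at 137 CPM in the C1qa gate. Cells without a gate held 255 CPM of them.

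Alas1, which makes the housekeeping synthase, stood at 672 CPM (interval 660 to 686) in the Elane gate. Its level was 211 CPM in the Prg2 gate (191 to 232), 41.7 CPM in the Mcpt8 gate (39.9 to 43.6), 28.0 CPM in the C1qa gate (14.0 to 50.1) and 26.2 CPM in the Hba-a1 gate (12.0 to 49.7). The intervals of the last 2 gates overlapped each other and that of the Mcpt8 gate, whereas the Elane and Prg2 gates stood apart from each other and from the rest. The Elane gate held 9.99% of the cells and 16.7% of all UMIs of the cKIT+ library, but 69.6% of its Alas1 UMIs. An Elane-gated cell carried a median of 14 Alas1 UMIs and at most 67, and 626 of the 647 cells carried at least 1. Of the 448 cKIT+ cells with 10 or more Alas1 UMIs, 406 were in the Elane gate, 25 passed several gates, 12 passed none, 5 were in the Prg2 gate and 0 were in the Mcpt8 gate.

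Elane-gated cells were also the deepest, so shares of cells were compared after drawing 2000 UMIs from each cell. Alas1 was then found in 67.1% of 641 Elane-gated cells (63.3 to 70.7), in 33.1% of 175 Prg2-gated cells (26.2 to 40.6) and in 8.15% of 3032 Mcpt8-gated cells (7.20 to 9.18). It was found in 0 of 47 Hba-a1-gated cells, which at 3 counts allows a share of up to 6.38% of cells with an Alas1 UMI at this thinned depth. The order of the gates by share was that by CPM. This drawing left out 6 Elane-gated, 82 Prg2-gated, 42 Mcpt8-gated and 10 Hba-a1-gated cells. At full depth Alas1 was found in 96.8% of Elane-gated cells, 54.9% of Prg2-gated cells, 43.4% of Mcpt8-gated cells and 5 of the 57 Hba-a1-gated cells, or 8.77% (2.91 to 19.3).

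Alas2, which makes the erythroid synthase, stood at 1971 CPM (1825 to 2125) in the cKIT+ Hba-a1 gate. The Mcpt8 gate held 11 of its UMIs (0.241 CPM), of which 6 lay in 1 cell, and the Elane gate held 2 (0.131 CPM). No Alas2 UMI was found in the Prg2 gate, where 3 counts would be 1.57 CPM, or in the C1qa gate, where they would be 7.63 CPM. The 57 cells of the Hba-a1 gate, 0.880% of the library, held 677 of its 789 Alas2 UMIs. The median cell of the gate carried 12 Alas2 UMIs and 53 of the 57 cells carried at least 1. Of the 57 cKIT+ cells with 3 or more Alas2 UMIs, 48 were in the Hba-a1 gate. At 2000 UMIs per cell Alas2 was found in 93.6% of Hba-a1-gated cells (82.5 to 98.7) and in 0.0989% of Mcpt8-gated cells.

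The 2 synthases thus lay mostly in different gates, while cells with UMIs of both were not counted. Alas2 made up 98.7% of the Alas1 and Alas2 UMIs in the cKIT+ Hba-a1 gate (97.5 to 99.4), 0.0195% in the Elane gate (0.00236 to 0.0704) and 0.574% in the Mcpt8 gate (0.287 to 1.03). These shares compare gates, and their size within a gate also holds how well each mRNA is captured. In the cKIT- Hba-a1 gate all 121 synthase UMIs were of Alas2.

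**Figure D1:**
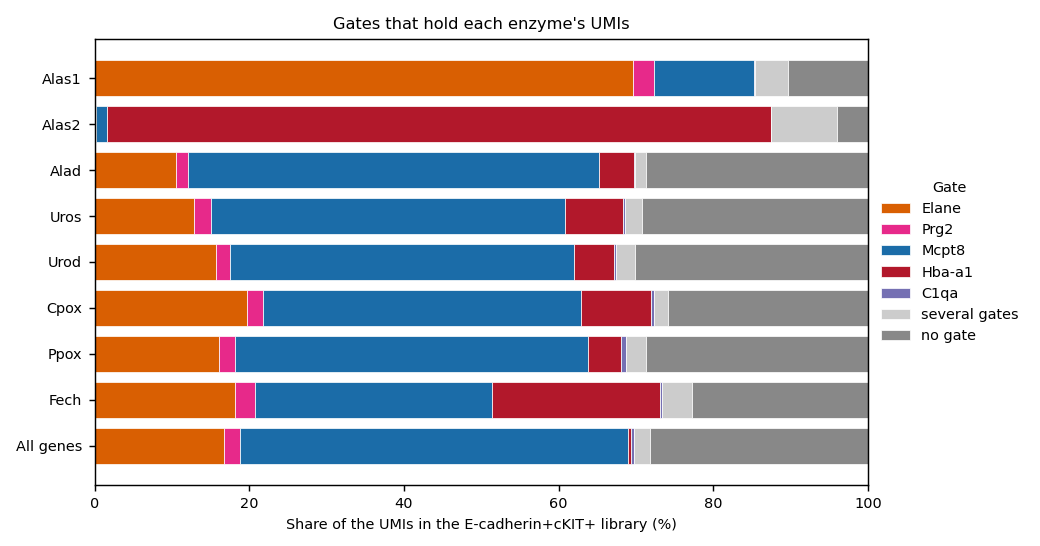
Share of each enzyme's UMIs in the E-cadherin+cKIT+ library (%) that came from each gate, with the share of all UMIs in the lowest bar. The Elane gate held 69.6% of the Alas1 UMIs and the Hba-a1 gate 85.8% of the Alas2 UMIs, while the Mcpt8 gate held between 41.1% (Cpox) and 53.1% (Alad) of the UMIs of Alad, Uros, Urod, Cpox and Ppox and 30.6% of those of Fech, against 50.1% of all UMIs.

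The later enzymes were each far lower in every other cKIT+ gate than in the Hba-a1 gate. Alad makes porphobilinogen from the product of the synthases. It stood at 1173 CPM in the Hba-a1 gate (1061 to 1293), at 104 CPM in the Mcpt8 gate, at 77.9 CPM in the Prg2 gate, at 61.5 CPM in the Elane gate and at 25.4 CPM in the C1qa gate. Outside the Hba-a1 gate it was thus highest in the Mcpt8 gate, the gate order being opposite to that of Alas1 among the Elane, Prg2 and Mcpt8 gates. At 2000 UMIs per cell, Alad was found in 19.8% of Mcpt8-gated cells (18.4 to 21.3), 14.3% of Prg2-gated cells (9.46 to 20.4) and 11.4% of Elane-gated cells (9.03 to 14.1).

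Uros closes the tetrapyrrole ring and Urod removes carboxyl groups from its side chains. Uros stood at 111 CPM in the Hba-a1 gate (78.3 to 152) and between 2.54 and 5.75 CPM in the Elane, Prg2, Mcpt8 and C1qa gates, where its intervals overlapped. Urod stood at 539 CPM in the Hba-a1 gate (464 to 622) and between 25.4 and 36.6 CPM in the same 4 gates, again with overlapping intervals. Neither enzyme told the Elane, Prg2 and Mcpt8 gates apart at this depth.

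Cpox oxidises side chains of the ring in the intermembrane space of the mitochondrion, and Ppox oxidises the ring itself at the inner membrane. Fech, ferrochelatase, inserts the iron. Cpox stood at 527 CPM in the Hba-a1 gate (453 to 609), 26.0 CPM in the Elane gate and 18.1 CPM in the Mcpt8 gate. Ppox stood at 131 CPM in the Hba-a1 gate (95.5 to 175) and between 10.5 and 17.8 CPM elsewhere. Fech stood at 1057 CPM in the Hba-a1 gate (951 to 1171), 22.0 CPM in the Prg2 gate, 19.99 CPM in the Elane gate and 11.2 CPM in the Mcpt8 gate. Fech was the later enzyme with the most even spread over Hba-a1-gated cells, with a median of 6 UMIs and at least 1 UMI in 49 of the 57 cells. Alad was found in 27 of the 57 cells and Cpox in 28, and the 5 cells with most of each held 47.1% of the Alad and 45.3% of the Cpox UMIs of the gate.

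Set against the Mcpt8 gate, the largest of the cKIT+ library, 7 of the 8 enzymes were at least 2-fold higher in CPM in the Hba-a1 gate and 0 were at least 2-fold lower. Among all 11953 genes with at least 20 UMIs over both gates, 8.65% were at least 2-fold higher and 63.2% at least 2-fold lower. The median log2 ratio was 4.199 over the enzymes and -1.62 over all genes. The Hba-a1 gate held 343541 UMIs, of which globin took 42.3%, and the Mcpt8 gate 45641455. A gene could thus pass 20 UMIs through the Mcpt8 gate alone, and with 0 UMIs in the Hba-a1 gate it counted as lower. The part of such genes and of globin in the share of lower genes was not tested. Fech was 94.0-fold higher (82.0 to 108), Cpox 29.1-fold (24.6 to 34.2), Uros 21.8-fold (15.0 to 30.8), Urod 15.5-fold (13.2 to 18.1), Ppox 12.4-fold (8.95 to 16.9) and Alad 11.3-fold (10.2 to 12.5). The ratio of Alas2 was 8177 (4541 to 16458) and rests on the 11 UMIs of the Mcpt8 gate. Alas1 was the exception, with a ratio of 0.628 whose interval of 0.287 to 1.19 includes 1. The 8 enzymes summed were 24.5-fold higher, and 42.5-fold higher when globin was left out of the totals.

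Against the same Mcpt8 gate, only Alas1 among the 7 enzymes with 20 UMIs was at least 2-fold higher in the Elane gate, at a ratio of 16.1 (15.3 to 16.9), and 0 were at least 2-fold lower. Over all genes 8.7% were higher and 13.5% lower by that rule. Fech followed with a ratio of 1.78 (1.54 to 2.05) and Cpox with 1.44 (1.27 to 1.62). Alad was lower, with a ratio of 0.590 (0.550 to 0.633). The intervals of Uros, Urod and Ppox included 1. Alas2 had too few UMIs in both gates.

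In the Prg2 gate Alas1 was 5.05-fold higher than in the Mcpt8 gate (4.53 to 5.63) and was the only 1 of 7 enzymes past 2-fold, against 11% of all genes higher and 11.3% lower. Fech stood just inside at 1.95 (1.39 to 2.68) and Alad at 0.748 (0.632 to 0.881). These 3 comparisons share the Mcpt8 gate as reference, so their values are given side by side only. Read directly against the Elane gate, the Hba-a1 gate had 7 enzymes at least 2-fold higher and Alas1 lower, at a ratio of 0.0390 (0.0178 to 0.0740). Over all genes 8.83% were higher and 59.6% lower, with the same limit from the few UMIs of the Hba-a1 gate.

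**Figure D2:**
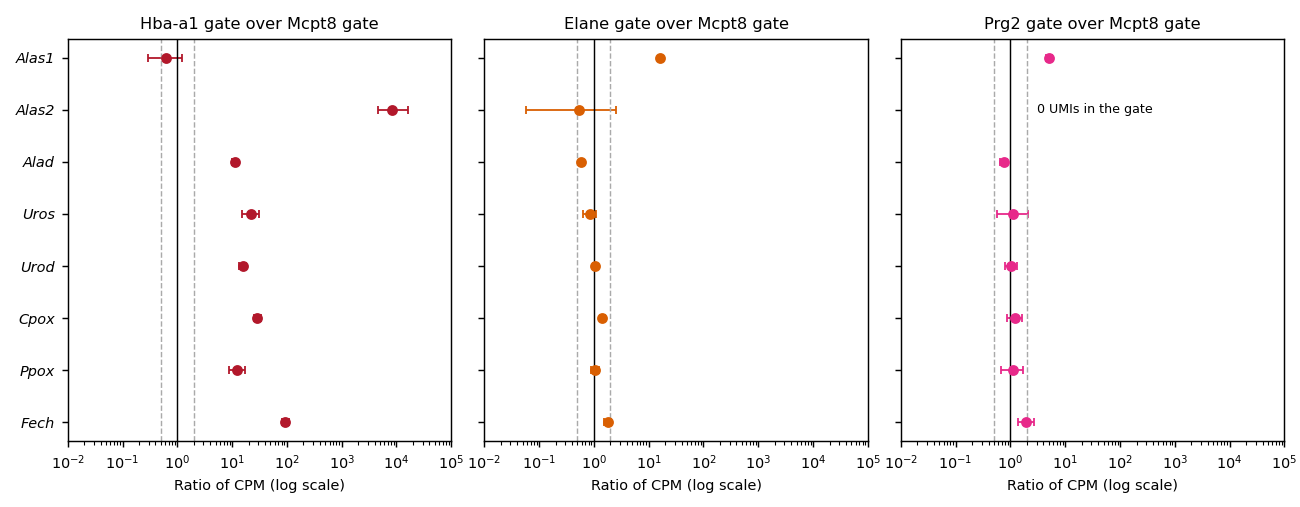
Ratio of CPM (log scale) of each enzyme in the Hba-a1, Elane and Prg2 gates over the Mcpt8 gate of the cKIT+ library, with 95% intervals from the exact binomial, a solid line at 1 and dashed lines at 2-fold. Alas1 lies to the right for the Elane (16.1) and Prg2 (5.05) gates and left of 1 for the Hba-a1 gate (0.628), where the other 7 enzymes lie between 11.3 and 8177.

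Within the Hba-a1 gate the enzymes did not follow globin alike. The 57 cells were set in 3 ranges by the share of Hba-a1 among their UMIs, 4 cells under 1%, 10 cells from 1% to 5% and 43 cells over 5%. Alas2 stood at 115 CPM (46.3 to 237), 812 CPM (621 to 1043) and 2934 CPM (2706 to 3177) in these ranges. Fech stood at 394, 745 and 1363 CPM, and the intervals of its lowest and highest range did not overlap. Alad stood at 1019, 1397 and 1137 CPM and Cpox at 608, 586 and 482 CPM, with overlapping intervals, so that on this scale the 4 cells with least globin did not stand apart in either gene. The 2 lower ranges hold few cells, and the order of the levels rests on them. Alas1 had 5 UMIs in the 4 cells of the lowest range (82.2 CPM) and 4 UMIs in the other 53. These 4 cells also held 104 of the gate's 144 UMIs of Mpo, a marker of granulocyte-monocyte progenitors. Mpo stood at 1709, 266 and 96.4 CPM over the ranges, and the part of such RNA in the enzyme levels was not tested.

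Globin itself took 3.06% of the UMIs in the lowest range, 13.2% in the middle and 64.3% in the highest, which lowers the CPM of every other gene. With globin left out of the totals, Alas2 stood at 119, 935 and 8219 CPM, Fech at 407, 859 and 3819 CPM, Alad at 1051, 1610 and 3185 CPM and Urod at 390, 429 and 1808 CPM. Cpox then stood at 627, 675 and 1350 CPM, and Ppox at 84.8, 153 and 405 CPM from 5, 10 and 30 UMIs. Uros stood at 170, 199 and 202 CPM from 10, 13 and 15 UMIs. On that scale Alas2 had the widest spread over the ranges, while Uros was nearly flat. Car1, carbonic anhydrase 1 of early erythroid cells, had the opposite order on the scale with globin, at 1874, 825 and 72.3 CPM. Slc25a37, the mitochondrial iron importer of erythroid cells, stood at 263, 572 and 1344 CPM.

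Some cells without a gate carried Car1. The 92 gateless cKIT+ cells with at least 3 Car1 UMIs stood at 248 CPM of Alad (222 to 276), 112 CPM of Cpox, 81.9 CPM of Urod (67.4 to 98.6) and 36.9 CPM of Fech (27.4 to 48.6). The other 2173 gateless cells stood at 91.7, 15.2, 39.6 and 13.6 CPM of these genes. Alas2 was at 8.11 CPM in the Car1 cells, from 11 UMIs, and Alas1 at 18.4 CPM. The UMIs were unevenly spread, since Alad was found in 60 and Cpox in 31 of the 92 cells and the 5 cells with most of each held 47.9% of the Alad and 62.5% of the Cpox UMIs. Without the 5 cells with most enzyme UMIs, left out after the data were seen, Alad stood at 153 CPM (131 to 177) and Cpox at 55.0 CPM (42.3 to 70.4). Urod then stood at 73.3 CPM (58.5 to 90.8) and Fech at 22.7 CPM (14.8 to 33.3). Uros and Ppox then stood at 9.60 and 8.73 CPM, against 5.14 and 11.6 CPM in the other gateless cells. The Car1 cells also held 54 Hba-a1 UMIs, of which 88.9% lay in 5 cells, and 630 CPM of Gzmb against 250.1 CPM in the other gateless cells, and the part of either in these levels was not tested.

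The Elane and Prg2 gates were each set in 3 groups of near-equal size by the share of the gate gene. Alas1 stood at 420, 717 and 821 CPM from low to high Elane, and at 154, 220 and 282 CPM from low to high Prg2. The intervals of the lowest and highest group did not overlap in either gate. Mpo, myeloperoxidase of the azurophil granules and a heme protein, stood at 6655, 8945 and 10803 CPM along Elane. Along Prg2 it did not rise, at 4536, 4388 and 4483 CPM. Epx, the eosinophil peroxidase, stood at 1461, 2308 and 3870 CPM along Prg2. Alad had the order reverse to that of Alas1, at 73.8, 62.5 and 51.0 CPM along Elane and 93.3, 82.1 and 53.4 CPM along Prg2. Fech stood at 15.0, 19.5 and 24.3 CPM along Elane. Along Mcpt8 in the Mcpt8 gate Alas1 kept to 44.5, 42.1 and 38.3 CPM and Alad to 102, 104 and 106 CPM.

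**Figure D3:**
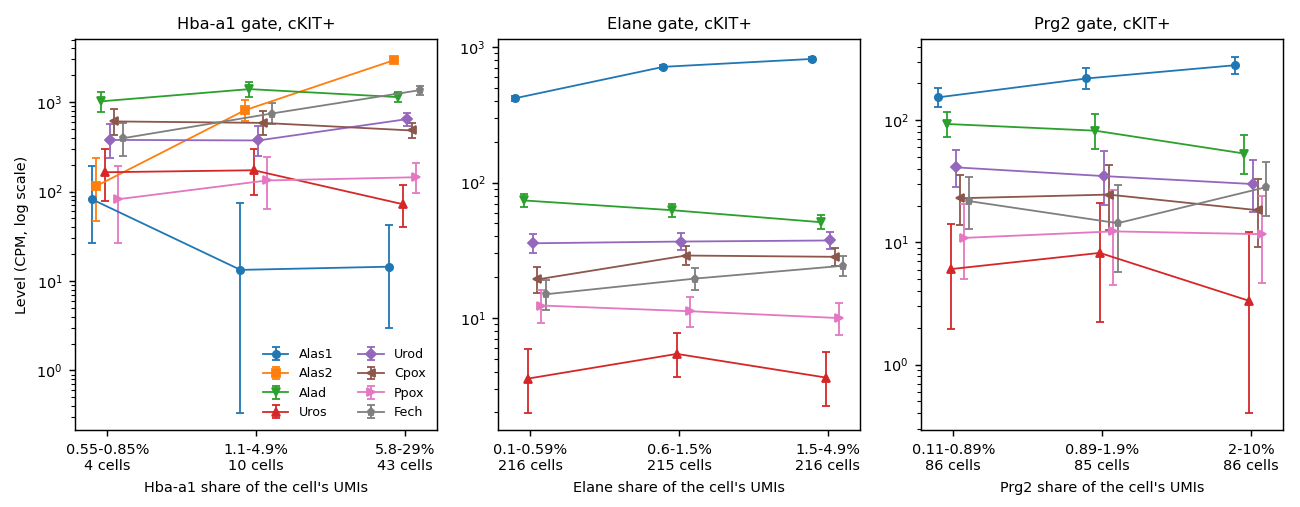
Level of the enzymes in CPM (log scale) in 3 ranges of the gate gene's share of the cell's UMIs, for the Hba-a1, Elane and Prg2 gates of the cKIT+ library, with 95% Poisson intervals and the number of cells under each range. Alas2 spans 115 to 2934 CPM along Hba-a1, and Alas1 spans 420 to 821 CPM along Elane and 154 to 282 CPM along Prg2.

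Between the sorts, Alas1 alone differed by more than 2-fold. It stood at 162 CPM in the cKIT+ library (159 to 164) and 33.6 CPM in the cKIT- library (31.3 to 36.1), a ratio of 4.81 (4.47 to 5.18). Of the 8 enzymes 1 was at least 2-fold higher and 0 at least 2-fold lower, against 15.4% and 10.7% of all genes. The ratios were 1.11 for Alad, 0.825 for Uros, 1.19 for Urod, 1.41 for Cpox, 0.912 for Ppox and 1.17 for Fech. The Elane and Prg2 gates held 647 and 257 cKIT+ cells but 3 and 0 cKIT- cells. Without the cells of these gates and of several gates, a comparison chosen after the data were seen, Alas1 stood at 47.7 and 33.5 CPM, a ratio of 1.42 (1.32 to 1.54), and 0 of 8 enzymes passed 2-fold, against 13.6% of all genes higher and 9.17% lower. Leaving out the Elane gate, which held 69.6% of the cKIT+ Alas1 UMIs, had to lower the ratio.

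Alas2 stood at 8.66 CPM in the cKIT+ and 5.38 CPM in the cKIT- library, and that ratio of 1.61 rests on few cells. The 57 cells of the Hba-a1 gate held 85.8% of the cKIT+ Alas2 UMIs, and 5 cells held 121 of the 123 cKIT- Alas2 UMIs. The ratio was 0.728 when all deposited cells were used and 5.83 when every cell had the same weight, so no direction is read from it. In the cKIT- Hba-a1 gate, the 5 cells carried 42, 29, 17, 31 and 2 UMIs of Alas2, 38, 19, 14, 21 and 3 of Fech, 32, 28, 32, 0 and 6 of Alad, and 0 of Alas1 in each. The 8 enzymes together stood at 10380 CPM there. The 5 cells thus had the pattern of the cKIT+ Hba-a1 gate, with 1 of them lacking Alad UMIs.

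Mcpt8-gated cells made up most of the UMIs of both libraries and could be compared between the sorts. Of the 7 enzymes with 20 UMIs 0 were past 2-fold in either direction, against 10% of all genes higher in the cKIT+ library and 6.07% lower. Alas1 stood at 41.7 CPM in cKIT+ and 35.0 CPM in cKIT- cells of the gate, a ratio of 1.19 (1.09 to 1.31). Cpox had a ratio of 1.31 (1.14 to 1.52), Alad 1.10 (1.04 to 1.16) and Uros 0.736 (0.590 to 0.922). The intervals of Urod, Ppox and Fech included 1. The 8 enzymes summed stood at 226 and 206 CPM, a ratio of 1.09 (1.05 to 1.14). In cells without a gate they summed to 255 CPM in the cKIT+ and 141 CPM in the cKIT- library. These gateless groups differed in make-up, with B-cell markers at 414 and 2103 CPM and mast cell markers at 317 and 1.71 CPM. The part of that difference in the enzyme levels was not tested. No replicate stands behind the ratios and levels of these comparisons.

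Free RNA from broken cells can bring UMIs into cells that do not express a gene, and 1 source keeps its genes in 1 ratio. The cKIT+ Mcpt8 gate held 179 Hba-a1 UMIs. At the ratios of the Hba-a1 gate these would come with 3.03 UMIs of Alas2, 1.80 of Alad and 1.62 of Fech. The gate held 11, 4753 and 513. Of the 11 Alas2 UMIs, 6 lay in 1 cell. These numbers take the Hba-a1-gated cells as the only source, and the part of free RNA in the UMIs of the Mcpt8 gate was not tested.

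Genes around the pathway were counted in lists. For the Hba-a1 gate over the Mcpt8 gate, iron uptake and storage had 7 of 9 genes at least 2-fold higher and 1 lower, with a median log2 ratio of 2.52, where 8.65% of all genes were higher and 63.2% lower and their median was -1.62. Slc25a37 was 89.8-fold higher, the transferrin receptor Tfrc 30.5-fold and the ferrireductase Steap3 14.2-fold, the last from 9 UMIs in the Hba-a1 gate. Slc25a28, the general mitochondrial iron importer, was lower at a ratio of 0.408, as were 63.2% of all genes by that rule. It rests on 5 UMIs in the Hba-a1 gate (14.6 CPM, 4.73 to 34.0). Ferritin heavy chain Fth1 stood at 6782 CPM against 1125 CPM. Transport of substrate and intermediates had 5 of 8 higher and 2 lower, with Abcb6 at 14.9, Slc25a39 at 10.8 and Abcb10, a mitochondrial ABC transporter, at 9.53. Iron-sulfur assembly and iron sensing had 2 of 7 higher, Glrx5 (9.90) and Iscu (2.91), and 2 lower. Of the genes of heme sensing and erythroid control 4 of 6 were higher and 0 lower, among them the factor Klf1 (80.8) and the heme-regulated kinase Eif2ak1 (12.9). Heme export and breakdown had 3 of 7 higher and 1 lower, with Blvrb, biliverdin reductase B, at 22.2, the exporter Abcg2 at 16.7 and the heme oxygenase Hmox1 at 5.39. A list of other heme proteins and related genes, such as Hpgds and Cox10, had 4 of 11 higher and 5 lower. Some of these calls rest on few UMIs in the Hba-a1 gate. Hpgds and the prostaglandin synthase Ptgs1, both higher, had 3 and 2, while Epx and Cox10, both lower, had 1 and 0.

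The same lists were counted for the Elane and Prg2 gates over the Mcpt8 gate, where 8.7% and 11% of all genes were higher and 13.5% and 11.3% lower. Iron uptake and storage had 4 of 9 genes higher and 0 lower in the Elane gate, led by the iron exporter Slc40a1 (3.79) and Tfrc (3.44), and 5 of 9 higher and 0 lower in the Prg2 gate, led by Tfrc (4.99) and Slc25a37 (4.58). The list of heme proteins and related genes had 4 of 11 higher and 0 lower in the Elane gate. The 4 were Ptgs1 (15.3), the oxidase subunit Cybb (7.33), Mpo (2.82) and Epx (2.76). That list had 3 of 11 higher and 0 lower in the Prg2 gate, namely Epx (153), Ptgs1 (3.84) and Cybb (3.68). Heme sensing and erythroid control had 0 of 6 higher and 4 lower in the Elane gate, with the erythroid factors Gata1 at 0.0712 and Klf1 at 0.204. In the Prg2 gate it had 1 higher, the heme-responsive repressor Bach1 (2.14), and 0 lower.

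Between the cKIT+ and cKIT- cells of the Mcpt8 gate, 4 of the 9 iron genes were past 2-fold towards the cKIT+ side and 0 towards the cKIT- side, against 10% and 6.07% of all genes. The 4 were Tfrc (3.98, 3.07 to 5.24), Steap3 (3.70), Slc40a1 (2.39) and Slc25a37 (2.09). The transport list had 0 of 8 and iron-sulfur assembly 0 of 7 past 2-fold in either direction. Heme sensing and erythroid control had 1 of 6 higher and 0 lower, namely Klf1 (6.98, from 176 and 10 UMIs). Heme export and breakdown had 1 of 7 higher and 0 lower, namely Abcg2 (5.14). The list of heme proteins and related genes had 3 of 11 higher and 0 lower, namely Cybb (7.31), Ptgs1 (3.34) and Mpo (2.57).

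The genes whose levels were most like those of each synthase were sought over the 9 groups with at least 50 cells, by Pearson's r of log2(CPM + 1) over the 4991 genes with at least 50 CPM in 1 of these groups. A gene like Alas2 then nearly had to peak in the Hba-a1 gate, where Alas2 did, and a gene like Alas1 in the Elane gate. These values describe groups that share libraries. For Alas2 they included the anion exchanger Slc4a1 (0.997), Trim10 (0.996), Tspan8 (0.994) and Slfn14 (0.992). For Alas1 they were Dmkn (0.985), Gpc1 (0.979), Pxylp1 (0.960), Med21 (0.959) and Nars (0.953). Against Alas2 the later enzymes had r between 0.836 (Alad) and 0.948 (Fech), and Alas1 had -0.11.

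On GRCm38 the genes lie apart. Alas1 is on chromosome 9 (106233455 to 106248654, minus strand), Alas2 on chromosome X (150547375 to 150570638, plus strand), Alad on chromosome 4 (62509169 to 62519918, minus strand) and Cpox on chromosome 16 (58670292 to 58717636, plus strand). Of the 8 genes 5 overlap a gene on the other strand, Alas1 with 4930500F10Rik, Alas2 with Apex2, Uros with Bccip, Cpox with Gpr15 and Ppox with B4galt3. The strand setting of the counting is not given in the sources used here, so their UMIs could include some of the partner's.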

How the data were processed

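Sorted mouse bone marrow cells were sequenced by the authors on the 10x Genomics platform, 1 library per sort. Kit version 3 is named in the methods and version 2 also in the labels. Raw UMI counts for each gene in each cell were deposited, which the authors obtained by running Cell Ranger 3.0.2 on mm10, with no normalization. From these counts the study's filter was applied per library (genes in at least 40 cells, then removal of the 1% of cells with fewest genes, with most genes and with most UMIs), and UMIs were summed per sort and gate (Python 3.11.15, scipy 1.17.1). The members, gates and lists were chosen with earlier results of these data known. Named beside the 8 enzymes are genes of these lists with the most UMIs or the largest ratios, and genes among the 5 most like each synthase, of which 1 is not reported here. Genes past 2-fold were counted among those with at least 20 UMIs over both groups. In a test with simulated data (cKIT+ against cKIT-), that count held 200 of 200 genes changed 4-fold and 202 of 13483 others. Poisson counts of whole libraries were drawn, without variation between cells, and the changed genes had at least 20 expected cKIT- UMIs. A 4-fold change nearly had to pass 2-fold in that setting. The smaller gates, with fewer UMIs, were not simulated. Scrublet in Scanpy 1.11.5 marked 293 cKIT+ and 7 cKIT- cells, which were kept, and leaving out the highest scores (321 and 105 kept cells) was an alternative. edgeR 4.0.16 and DESeq2 1.42.0 were used for library scaling alone. Of 31053 gene identifiers, 30934 were found in GENCODE release 21, which gave coordinates. Alternatives covered cells, doublets, totals, scaling, depth, gates and thresholds. The study's other assays were not analysed here.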

Additional observations from a re-analysis of the deposited data

How the results depend on the processing

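Of 526 values recomputed under an alternative, 435 stayed within the limit set for them and 91 moved past it. That limit was the counting interval for ratios and shares, and 1.5-fold for counts of genes. A turn of direction was looked for only in ratios at least 2-fold apart, of which 0 turned. The sort ratio of Alas2, which did change direction, was below that threshold and is not among them. For the 8 enzymes summed, the ratio of the sorts (1.73) became 1.61 without the 10 most abundant genes in the totals, 1.80 as a mean over cells and, chosen after seeing the data, 1.24 without the Elane, Prg2 and several-gates cells. Alas1 gave 14739 of the 33294 summed UMIs of the cKIT+ library and 769 of the 4824 of the cKIT- library. The sort ratio within the Mcpt8 gate (1.09) became 1.03 without the 10 most abundant genes, 1.17 at 2000 UMIs per cell and 1.14 with cells of several gates kept in each. The Hba-a1 over Mcpt8 ratio (24.5) became 23.1 with all deposited cells, 27.1 without the highest Scrublet scores, 22.6 without the 10 most abundant genes, 42.5 without globin, 26.3 as a mean over cells, 23.2 with gate shares at 50% of those used, 20.3 with cells of several gates kept and, chosen after seeing the data, 23.3 without the 5 cells with most enzyme UMIs. The Elane over Mcpt8 ratio (3.68) became 3.49 without the 10 most abundant genes, 3.57 as a mean over cells, 3.39 at 2000 UMIs per cell and 3.42 with cells of several gates kept. It rests mostly on Alas1, which gave 10262 of the 12697 summed UMIs of the Elane gate. The share of cells with Alas2 in the Hba-a1 gate became 75.5% at 1000 UMIs, and that with Alas1 in the Elane gate 41.9% at 1000 UMIs, 35.4% with 2 or more UMIs and 96.8% as deposited. At 1.5-fold, the enzymes past the threshold became 2 between sorts (45.0% of all genes), 3 for the Elane gate (37.7%) and 2 for the Prg2 gate (41.6%). With a minimum of 10 UMIs they became 1 between sorts of the Mcpt8 gate (18.3%) and 2 for the Prg2 gate (26.3%). Beyond the alternatives' own construction, the cause was not tested. No paired analysis was possible because each sort has 1 library and no test was made. The Hba-a1 gate rests on 57 and 5 cells, and no value here has a replicate.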
